A study of Mus musculus with 6 samples.

Results

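The regions described here are the short places on chromosomes 1 to 19 at which methylated DNA was captured in every one of 6 mouse lungs. Peaks of the 6 libraries were merged wherever they shared or touched at 1 bp, and members were chosen by the peak calls themselves: a merged region was kept when each of the 6 peak lists gave it at least 1 peak and its width was under 2500 bp. This left 16639 regions of 158077 autosomal merged regions (10.53%), against 141335 regions with a peak in 1 to 5 lists and 103 wider regions with a peak in all 6. DNA of whole lung was enriched through a protein domain that binds methylated CpG before sequencing (MBD-seq), so a peak marks DNA that carries several methylated CpG dinucleotides close together. The groups were 3 mice with the transgene that the labels call SPC-DNMTdelta3B/DG and 3 wild-type mice, all 12 to 16 months old. The genotype of transgenic replicate 2 is spelled SPC-DNMTdeltaB/DG. SPC stands for surfactant protein C, whose promoter is used to express transgenes in alveolar type 2 epithelial cells, so the other cell types of the lung, which were captured together with them, are not the intended site of the transgene. The labels name 4 founder lines, and give neither the line nor the sex of the sequenced animals.

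Most CpG sites of a mammalian genome are methylated in every tissue, and the exceptions are CpG islands at active or poised promoters and many enhancers. A small set of promoters departs from that pattern: genes used only in germ cells acquire promoter methylation in the early embryo and stay silenced by it in all somatic tissues, and imprinted genes carry methylation on the allele of 1 parent, laid down in the egg or sperm. Capture by a methyl-binding domain needs both methylation and enough CpG sites, so stretches with few CpG give no peak whatever their methylation.

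The shared short regions lay outside genes more often than regions found in fewer lungs, and few lay at gene starts. The promoters that they did cover had several CpG sites, and those of germ-cell genes were among them: 20 of 47 germline genes with a known start had a shared short region within 1000 bp of it, against 1.37% of all 25748 autosomal genes with a known start. No housekeeping, homeobox or T-box, tumour suppressor or DNA methylation machinery gene had one there, of 28, 56, 22 and 16 with a known start. With 1.37% as the background, these zeros do not set the lists apart from genes in general. Printed first are the upstream sequences that 4 of these regions cover, chosen to show promoters of known somatic methylation. Each is the 250 bases before the annotated start, from the RefSeq promoter table (GRCm38.p6, the assembly of mm10), written 5′ to 3′ on the strand of the gene, with every CG dinucleotide in capitals. Sycp1 encodes the transverse filament protein of the synaptonemal complex, Slc25a31 the ADP/ATP carrier of male germ cells, Dazl an RNA-binding protein of germ cells, and Mcts2 is an imprinted retrogene inside an intron of H13.
Sycp1, chr3:102936101-102936350, minus strand: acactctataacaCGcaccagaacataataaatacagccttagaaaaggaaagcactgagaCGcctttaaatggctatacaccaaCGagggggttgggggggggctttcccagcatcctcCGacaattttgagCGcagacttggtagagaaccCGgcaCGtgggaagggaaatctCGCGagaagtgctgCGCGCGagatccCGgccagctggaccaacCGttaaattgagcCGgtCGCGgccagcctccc
Slc25a31, chr3:40708621-40708870, plus strand: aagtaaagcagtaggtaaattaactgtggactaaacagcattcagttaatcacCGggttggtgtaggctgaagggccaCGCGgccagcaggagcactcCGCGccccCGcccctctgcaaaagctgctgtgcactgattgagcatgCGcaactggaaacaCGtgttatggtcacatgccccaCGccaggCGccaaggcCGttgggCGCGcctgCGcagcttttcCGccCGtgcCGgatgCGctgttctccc
Dazl, chr17:50293621-50293870, minus strand: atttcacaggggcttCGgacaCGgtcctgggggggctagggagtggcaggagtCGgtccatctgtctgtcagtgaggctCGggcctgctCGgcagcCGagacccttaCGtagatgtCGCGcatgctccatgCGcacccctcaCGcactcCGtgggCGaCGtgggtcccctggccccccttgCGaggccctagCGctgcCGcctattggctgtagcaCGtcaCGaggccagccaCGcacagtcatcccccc
Mcts2, chr2:152686898-152687147, plus strand: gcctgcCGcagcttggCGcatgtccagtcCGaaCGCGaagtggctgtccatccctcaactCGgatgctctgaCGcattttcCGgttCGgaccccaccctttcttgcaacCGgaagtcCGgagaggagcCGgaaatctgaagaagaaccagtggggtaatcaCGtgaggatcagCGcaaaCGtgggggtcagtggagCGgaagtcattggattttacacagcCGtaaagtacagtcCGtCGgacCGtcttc

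These sequences hold 17, 18, 20 and 20 CG dinucleotides, where the median over all coding promoters of the table is 10 in the same 250 bases. The remaining 3 are the promoters of Vmn2r29, a vomeronasal pheromone receptor gene, Sec1, a fucosyltransferase gene, and Tmprss12, a serine protease gene of the testis. They are shown as covered promoters of high score rank from genes outside the germline and imprinted lists used here.
Vmn2r29, chr7:7278290-7278539, minus strand: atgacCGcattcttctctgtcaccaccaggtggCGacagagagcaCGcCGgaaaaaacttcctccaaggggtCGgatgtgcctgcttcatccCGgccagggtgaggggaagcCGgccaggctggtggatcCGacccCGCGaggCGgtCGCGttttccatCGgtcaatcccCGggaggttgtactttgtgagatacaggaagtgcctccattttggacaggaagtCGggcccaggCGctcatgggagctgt
Sec1, chr7:45694403-45694652, minus strand: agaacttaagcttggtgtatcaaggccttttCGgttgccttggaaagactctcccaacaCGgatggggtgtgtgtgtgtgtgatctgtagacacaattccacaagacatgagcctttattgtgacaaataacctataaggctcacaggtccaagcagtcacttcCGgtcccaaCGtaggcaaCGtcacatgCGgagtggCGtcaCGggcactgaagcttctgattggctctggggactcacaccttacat
Tmprss12, chr15:100280587-100280836, plus strand: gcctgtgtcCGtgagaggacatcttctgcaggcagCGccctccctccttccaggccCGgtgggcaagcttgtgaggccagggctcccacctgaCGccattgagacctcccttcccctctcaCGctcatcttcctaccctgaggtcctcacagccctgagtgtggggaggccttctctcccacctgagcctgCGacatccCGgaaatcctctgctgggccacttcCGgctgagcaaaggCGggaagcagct

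Vmn2r29 has 17 CG dinucleotides in these bases, Sec1 has 8 and Tmprss12 has 9. All 7 promoters lay wholly inside a shared short region.

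The peak lists differed in length, and this set which regions could qualify. The authors' peak caller gave 114780, 110715 and 74736 autosomal peaks in transgenic replicates 1, 2 and 3, and 56785, 105796 and 28399 in wild-type replicates 1, 2 and 3. Wild-type replicate 3 had the shortest list and its peaks in these regions had a median width of 210 bp, against 492 to 707 bp in the other libraries. Of 23628 regions with a peak in exactly 5 lists, 18904 (80.01%) lacked one in wild-type replicate 3, and 3956 (16.7%) in wild-type replicate 1. Without wild-type replicate 3, 35509 short regions had a peak in all 5 remaining lists. Read depth is unknown.

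The regions had a median width of 796 bp, from 534 bp at the 10th to 1286 bp at the 90th percentile, and together covered 14.4 Mb, or 0.598% of the autosomal span. Regions with a peak in fewer lists had a median width of 435 bp. In 13221 of the regions (79.5%) each list gave exactly 1 peak. The stretch covered by all 6 lists at the same time had a median of 214 bp, or 29.3% of the region, and in 10913 regions (65.6%) it was the whole peak of wild-type replicate 3. In 423 regions (2.54%) no base was covered by all 6 lists, so that "shared by all lungs" holds for those regions only through chains of touching peaks. The 3 widest regions kept were 2492 bp (Gm11620, chromosome 11), 2482 bp (nearest gene Gm25977, chromosome 4) and 2480 bp (the retinoid-binding protein gene Rbp3, chromosome 14). The first 3 beyond the limit were 2508 bp (nearest gene Tmem64, chromosome 4), 2512 bp (the phosphodiesterase gene Pde1c, chromosome 6) and 2514 bp (LOC100504180, chromosome 10). These 6 stand on either side of the rule's limit and were not compared.

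The score rank of a region was taken inside each library, as the percentile of its highest-scoring peak among that library's autosomal peaks, because the authors' scores are not on a common scale across libraries. The shared short regions sat high in every list. Their median percentile was 89.8, 88.9 and 84.1 in transgenic replicates 1, 2 and 3 and 76.6, 88.0 and 62.1 in wild-type replicates 1, 2 and 3. Wild-type replicate 2 lay among the transgenic libraries and the other wild-type libraries lay below them, so the groups overlapped. A region near the top of the long lists was often weak in the shortest list: wild-type replicate 3 gave the lowest of the 6 percentiles in 54.8% of the regions and wild-type replicate 1 in 28.3%. Presence in all 6 lists was part of the rule, so these ranks describe the regions and test nothing.

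**Figure D1:**
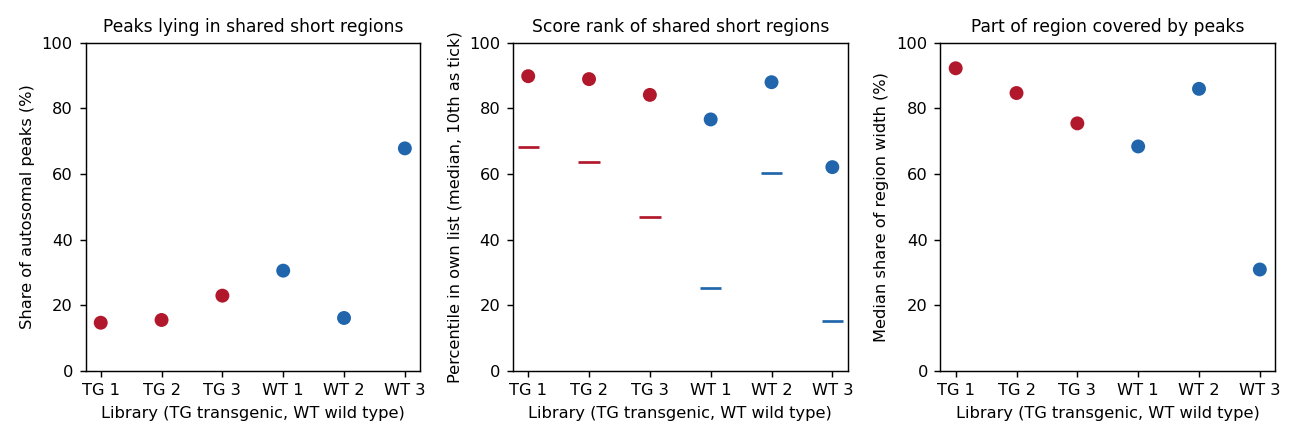
Each point is 1 library (TG transgenic, WT wild type). Left, share of the library's autosomal peaks that lie in shared short regions; middle, median score percentile of the regions in the library's own list, with the 10th percentile as a tick; right, median share of a region's width covered by the library's peaks. WT 3, with the shortest list, stands apart in all 3 panels at 67.8%, 62.1 and 30.9%, and WT 2 lies with the transgenic libraries.

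Of all autosomal peaks, the regions held 14.6%, 15.5% and 22.9% in transgenic replicates 1, 2 and 3 and 30.5%, 16.1% and 67.8% in wild-type replicates 1, 2 and 3. The group means were 17.7% ± 4.54 (SD, n = 3) and 38.1% ± 26.7 (SD, n = 3), a difference below the spread between wild-type libraries (two-sided exact permutation test, p = 0.20, adjusted p = 0.30 over 3 measures, where 0.10 is the smallest p that 3 against 3 allows). The median percentile of the regions was 87.6 ± 3.07 in transgenic and 75.5 ± 12.98 in wild-type lungs (SD, n = 3 each; two-sided exact permutation test, p = 0.20, adjusted p = 0.30). The median share of a region covered by a library's peaks was 92.2%, 84.7% and 75.4% in the transgenic and 68.4%, 85.9% and 30.9% in the wild-type libraries. Its means, 84.1% ± 8.41 and 61.7% ± 28.1 (SD, n = 3 each), did not differ beyond the replicate spread (two-sided exact permutation test, p = 0.30, adjusted p = 0.30). The share of peaks and the percentile followed the order of list length in all 6 libraries, and the covered share did so except for transgenic replicate 2 and wild-type replicate 2. The part of list length in these values was not tested.

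Across the 16639 regions the libraries ranked the regions alike to different degrees. The Spearman correlation of percentiles between 2 libraries was 0.656 to 0.889 in the 10 pairs without wild-type replicate 3 and 0.304 to 0.378 in the 5 pairs with it. These are descriptions over regions that share libraries, and regions are not replicates. The percentile was above 50 in all 6 lists at 7842 regions (47.1%) and above 90 in all 6 at 1193 regions. At 4 regions the highest-scoring peak had a score of 3100 in each of the 6 lists, near the top of every list: chr12:3109641-3110225, chr2:98665995-98667462, chr4:118546931-118548919 in the predicted gene Gm40237, and chr9:35305116-35305914 in the predicted gene Gm33838 (mm10, as are all coordinates here). A score of 3100 was the highest in every list except that of transgenic replicate 1, at 3194, so these 4 regions are tied. Repeat content and mappability of the regions were not examined, so scores there are uncertain. The next in order, chr6:103648959-103649557, lay inside Chl1, a neural cell adhesion gene, with scores of 2588, 2917 and 2879 in the transgenic and 2924, 1746 and 3100 in the wild-type libraries. The narrowest region, 219 bp on chromosome 11, had its nearest gene end 21417 bp away.

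Relative to genes, the regions were placed much as the autosomal span itself, whereas regions found in fewer lungs favoured genes. The midpoint lay inside a gene, from start to end with introns included, in 8110 shared short regions (48.7%, 95% exact binomial interval 48.0 to 49.5, counting error only) and in 63.3% of the regions with a peak in fewer lists (63.0 to 63.5). Genes occupy 49.4% of the autosomal span. With protein-coding genes alone the shares were 40.1% and 54.4%. By number of lists, the share inside a gene was 63.2%, 64.7%, 65.4% and 64.3% for 1 to 4 lists, 58.6% for 5 lists and 48.7% for the shared short regions. The fall thus lay in the last 2 classes.

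The lower share inside genes stood in each of the 5 width classes. It was 57.4% against 62.9% under 500 bp, 53.0% against 64.6% from 500 to under 700 bp, 43.0% against 60.2% from 700 to under 1000 bp, 50.3% against 69.4% from 1000 to under 1500 bp and 54.8% against 72.1% from 1500 to under 2500 bp. Regions with a peak in 5 lists lay between in 4 of the 5 classes, with 53.8% from 700 to under 1000 bp. The same contrast held within each library: 47.5% to 49.3% of peaks in shared short regions lay inside a gene, against 61.4% to 63.9% of the library's other autosomal peaks, in 6 of 6 libraries. These 6 comparisons use the same regions and are not independent of each other. Without wild-type replicate 3 the regions of the remaining lists gave 53.7% against 64.1%.

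**Figure D2:**
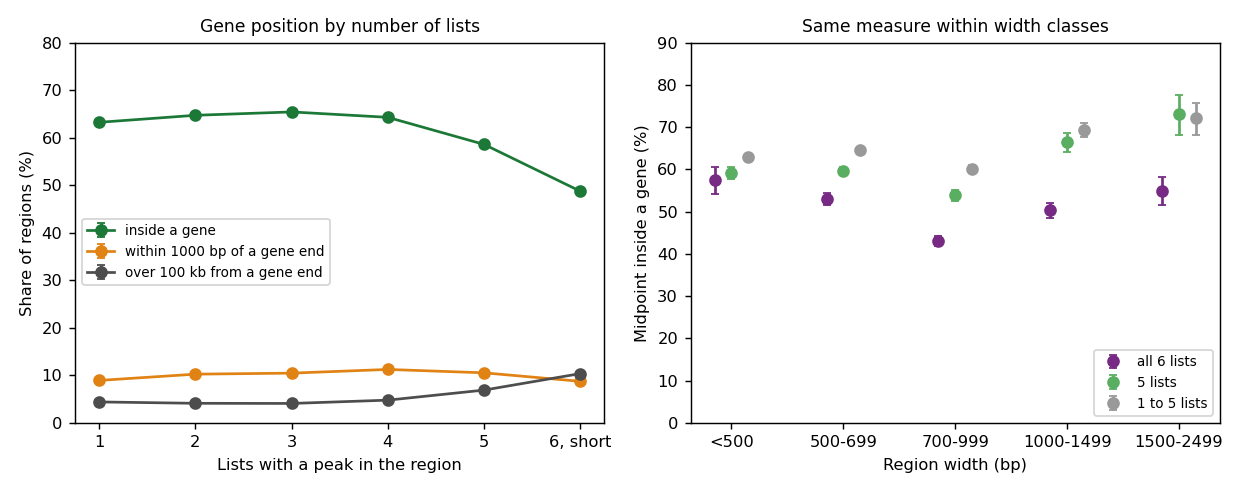
Left, share of regions whose midpoint lies inside a gene, within 1000 bp of a gene end or over 100 kb from one, by the number of lists with a peak; right, share inside a gene by region width. Bars give the 95% exact binomial interval, which holds counting error alone. The share inside a gene falls to 48.7% and the share over 100 kb from a gene end rises to 10.4% in the short regions of all 6 lists.

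Far from genes the shared short regions were more common. Midpoints over 100 kb from the nearest gene end made up 10.4% of them (1723 regions, 95% exact binomial interval 9.90 to 10.8) and 4.77% of the regions in fewer lists, and without wild-type replicate 3 they made up 8.64% and 4.41%. Their median distance to a gene end was 15072 bp, against 10423 bp. Within the shared short regions the position also went with rank. With the regions split into 4 equal groups by the lowest of their 6 percentiles, from low to high, the share inside a gene was 55.2%, 48.8%, 47.0% and 44.0%, and the share over 100 kb from a gene end 8.34%, 9.21%, 10.8% and 13.03%. Regions of the highest group were wider, with a median of 916.5 bp against 761 bp in the lowest.

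Gene ends were covered less than by regions of fewer lists. The midpoint lay within 1000 bp of either end of a gene in 8.73% of shared short regions and 10.1% of the others, where 6.37% of the span does. This difference of -1.34 percentage points shrank to -0.28 without wild-type replicate 3. By width, the direction was opposite under 500 bp, with 9.65% against 9.31%, and the share was lower in each wider class. Where the strand of the gene was known (25748 of 47042 autosomal genes), 2.35% lay within 1000 bp of a 3′ end against 3.59%, and 2.03% within 1000 bp of a transcription start against 2.70%, where 2.21% of the span does. At starts the share was likewise higher under 500 bp, 2.95% against 2.59%, and lower in each wider class. Starts and strands on chromosome 18 were not used here. Over the other 18 autosomes (16049 regions) the shares were 2.44% against 3.72% at 3′ ends and 2.11% against 2.80% at starts, with 2.30% of the span. By gene class, 6.48% of pseudogenes and 7.82% of transcribed pseudogenes had a shared short region within 1000 bp of an end, against 2.83% of protein-coding and 2.40% of long noncoding RNA genes, and 3.31% of all 47042 genes. Pseudogenes are copies of other genes, and the treatment of reads that match several copies is unknown here, so values there are uncertain.

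Around the 20085 annotated starts of protein-coding genes the regions were thinnest just upstream. There were 10 midpoints from 1000 to 500 bp before a start, or 0.498 per 1000 starts, and 118 in the first 500 bp after it, or 5.88 per 1000 starts. From 2500 bp inwards to 5000 bp the 500 bp bins held 80 to 94. Regions of fewer lists had their lowest bin in the last 500 bp before the start, at 13.3 per 1000 starts, and 45.6 per 1000 in the first 500 bp after it. Along protein-coding genes of 10 kb or more, cut into 10 equal parts, the regions rose from 4.05 per Mb in the first part to 10.4 per Mb in the last, and regions of fewer lists from 50.6 to 115 per Mb. The trend along the gene body was thus common to both.

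**Figure D3:**
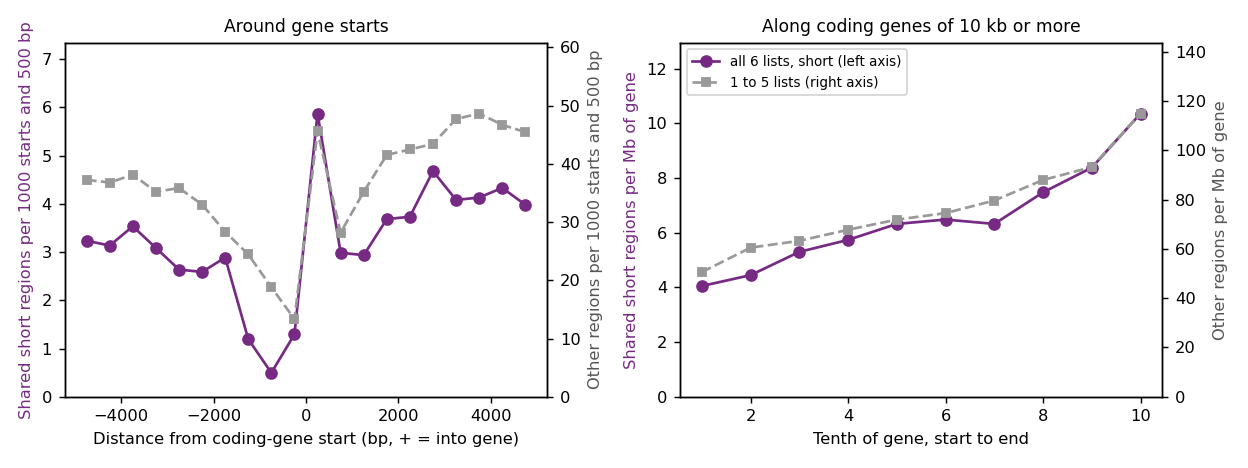
Left, midpoints per 1000 annotated coding starts in bins of 500 bp by distance from the start; right, midpoints per Mb in each of 10 equal parts of coding genes of 10 kb or more. Shared short regions are on the left axes and regions with a peak in 1 to 5 lists on the right axes. The shared short regions drop to 0.498 per 1000 starts just upstream, reach 5.88 just after the start, and rise along the gene from 4.05 to 10.4 per Mb.

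The whole 300 bp promoter of the RefSeq table (250 bases before and 50 after the start) lay inside a shared short region for 86 of 20085 protein-coding promoters, belonging to 82 genes. These promoters were neither poor nor very rich in CpG as a group, with a median of 15 CG dinucleotides against 14 for all coding promoters. Of the 4633 promoters with 3 or fewer, 0 were covered (upper bound 0.0796%, 95% exact binomial), and of those with 4 to 7, 0.17%. The share was 0.97% at 8 to 12, 1.00% at 13 to 18 and 0.44% at 19 or more. Regions of fewer lists covered 0 promoters in the poorest class too.

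Sequence motifs, 3 in all and each searched on both strands, were counted in the same 300 bp. TTCCCGC, the core of an E2F site, was in 20.9% of the 86 covered promoters and in 6.05% of all 20085 coding promoters. CACGTG, an E-box, was in 26.7% against 7.89%. TGCCGC, the core bound by the imprinting factor ZFP57, was in 16.3% against 14.2%. Promoters covered by regions of fewer lists held TTCCCGC in 6.45% and CACGTG in 16.7%. E2F6 and E-box factors are known to direct methylation of germline promoters, but a match of letters is not a bound site. All 3 motifs contain CG, and the covered promoters had no member of the CpG-poor class, which made up 23.1% of all coding promoters.

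Germ-cell genes led the list of starts. Of the 20 germline genes with a shared short region at a start (42.6% of 47, 95% exact binomial interval 28.3 to 57.8), 16 had the whole promoter covered, out of 82 coding genes with a covered promoter. The count of 20 became 27 without wild-type replicate 3 and 8 when only peaks of at least the pooled median score were used. Of the other germline genes, 8 had the promoter covered by a region of fewer lists, among them Brdt, Piwil1 and Sohlh1. The 20 regions had a median of 846, 496 and 308 for the score in transgenic replicates 1, 2 and 3 and of 159, 463 and 93.0 in wild-type replicates 1, 2 and 3, all above the medians of all shared short regions (423, 287 and 183, then 105, 252 and 78.0). Their lowest percentile had a median of 75.7, against 47.3 over all shared short regions. The germline list was drawn up with earlier results of these data known, so its count is a description.

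Rpl10l, a testis-expressed ribosomal protein retrogene, had the highest lowest percentile of any start of a coding gene. Its region, chr12:66283633-66284645, had scores of 1560, 1000.5 and 642 in transgenic replicates 1 to 3 and of 274, 812 and 225 in wild-type replicates 1 to 3, and lay at or above percentile 99.05 in each list. The 6 libraries thus placed it within the top 1% of their peaks. The region at the start of Sycp1, chr3:102935147-102936511, had scores of 1282, 854 and 568 and of 284, 590 and 177 in the same order, with 98.17 as its lowest percentile. Slc25a31, chr3:40708388-40709591, had 1343, 843 and 432 and then 224, 680 and 164. By percentile in the library's own list, Sycp1 had 99.6, 99.5 and 99.8 in the transgenic and 99.2, 98.6 and 98.2 in the wild-type libraries, without overlap, and the groups at Rpl10l did not overlap either (lowest transgenic 99.86, highest wild type 99.84). At Slc25a31 wild-type replicate 2 (99.4) ranked above transgenic replicate 3 (98.6). The values of both groups at these 3 starts lay between percentile 97.2 and 99.9.

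Meiotic genes stood beside them. Sycp2, an axial element protein of the synaptonemal complex, had a region at chr2:178406781-178407938 with scores of 802, 610 and 311 in the transgenic and 196, 412 and 137 in the wild-type libraries. Stra8, which is switched on by retinoic acid at the entry into meiosis, had 885, 545 and 344 and then 183, 613 and 129. Sycp3, Syce1 and Syce3 of the same complex, Mael and Mov10l1 of the piRNA pathway and Ddx4, the germ-cell RNA helicase Vasa, were covered as well, with lowest percentiles from 19.9 (Syce1) to 87.1 (Mael). Tex14, which keeps the bridges between germ cells open, had the smallest of the 20, a percentile of 3.11 set by wild-type replicate 1, where the score was 51.5. Scores start at 50 in every list, so that region was near the limit of detection in that library. It also covered the whole promoter of Rad51c, which is not on the germline list.

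Other testis genes had high ranks at their start. They included Ccin (calicin, a protein of the sperm head), Ankrd31 (a factor of meiotic recombination), Cypt4 (a protein of the spermatid perinuclear theca), Tmprss12 and Fkbp6, an immunophilin needed for male meiosis. Their lowest percentiles were 93.4, 89.2, 88.2, 87.8 and 94.6. Predicted-gene names were left out of the 20 first coding starts. Others of these not on the germline list included Oasl1 of the interferon response at 97.1 and Vmn2r29 at 96.5. Tktl2, a transketolase-like gene, had 94.6, Fscn2, the fascin of photoreceptors, 94.5 and Fam178b 93.6. Further down came the olfactory receptor gene Olfr691 at 91.3, the zinc-finger gene Zfp180 at 91.1 and Sec1 at 90.1. Of 934 olfactory receptor genes with a known start, 6 had a shared short region at it (0.642%, 95% exact binomial interval 0.236 to 1.39), an interval that holds the 1.37% of all genes.

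Imprinted genes had a shared short region within 1000 bp of a start in 6 of 45 cases (13.3%, 95% exact binomial interval 5.05 to 26.8). These were Kcnq1ot1, the paternally expressed antisense RNA of the Kcnq1 domain, Zrsr1 and its host gene Commd1, which share 1 region, Mcts2, Zdbf2 and Fkbp6, which is also counted among the testis genes above. The region at Mcts2, chr2:152686387-152687815, had scores of 765, 386 and 324 in the transgenic and 167, 341 and 145 in the wild-type libraries. At Kcnq1ot1, chr7:143294975-143296753, they were 829, 519 and 280 and then 112, 465.5 and 88.5. At Zrsr1 and Commd1, chr11:22971798-22973206, they were 933, 421 and 340 and then 67.5, 420.5 and 53.7, the last near the lowest score a list can hold. By percentile the groups overlapped in all 3 regions: wild-type replicate 3 (95.8) ranked above transgenic replicates 2 and 3 (93.6 and 95.76) at Mcts2, and wild-type replicate 2 above a transgenic library at Kcnq1ot1 (96.9 against 93.8) and at Zrsr1 and Commd1 (95.96 against 94.5). The promoters of 6 more imprinted genes (Gnas, Igf2r, Mest, Nnat, Plagl1 and Usp29) were covered by regions with a peak in fewer lists.

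**Figure D4:**
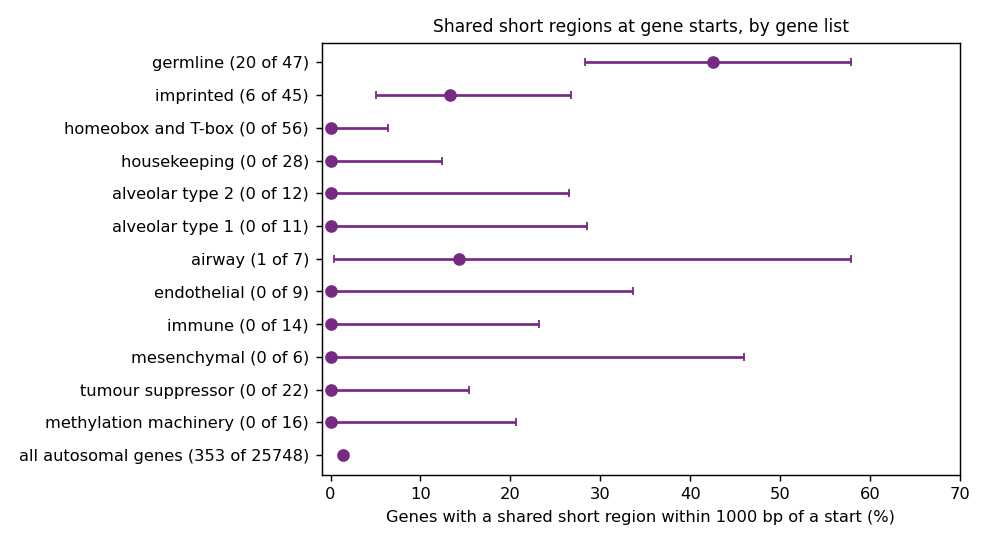
Share of the genes of each list with a shared short region within 1000 bp of a known start; bars give the 95% exact binomial interval, and the counts stand beside each name. The germline list lies at 42.6% and the imprinted list at 13.3%, against 1.37% of all autosomal genes.

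Starts of other lists were free of shared short regions. There were 0 of 56 homeobox and T-box genes (upper bound 6.38%), 0 of 28 housekeeping genes (12.3%), 0 of 22 tumour suppressors (15.4%) and 0 of 16 genes of the methylation machinery (20.6%), all with 95% exact binomial bounds. Of the lung cell markers, 0 of 12 alveolar type 2, 0 of 11 alveolar type 1, 0 of 9 endothelial, 0 of 14 immune and 0 of 6 mesenchymal genes had one, and 1 of 7 airway genes did, Cldn10, a tight junction gene, at a lowest percentile of 45.5. With 1.37% as the background, these zeros do not set the lists apart from genes in general. The lists were not tested against each other.

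Gene bodies gave another order. A shared short region had its midpoint inside 12.8% of the 47042 autosomal genes, and inside 21.8% of the 20665 protein-coding genes, whose median length is 17491 bp. It was inside 28 of 56 germline genes, 25 of 58 imprinted, 12 of 31 tumour suppressor and 8 of 18 methylation machinery genes, but only 2 of 90 homeobox and T-box genes (Tbx1 and Alx4). The last list has a median gene length of 7298 bp and the other 4 of 23985.5 to 43559 bp, so length and list cannot be told apart here. Fhit, a tumour suppressor at a fragile site, held or adjoined 11 regions, the highest-ranking of them at a lowest percentile of 93.6. Shared short regions occurred at 6.92 per Mb over the autosomes, and the count at Fhit was not set against the length of the gene. A region inside Rb1, the retinoblastoma gene, chr14:73265027-73265667, had scores of 910, 591 and 446 in the transgenic and 174.5, 398 and 157 in the wild-type libraries, and one in Dapk1, a death-associated kinase gene, had 921.5, 657 and 308 and then 235, 640 and 166. Neither lay at a known start. Mbd3, a methyl-binding domain protein gene, held 1 region 303 bp from a gene end with a lowest percentile of 94.3.

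Among the lung marker genes, 7 of 14 named regions lay above the median lowest percentile of all shared short regions, 47.3. The genes were named from the top of each list by rank, with 1 region given for each. That choice can raise the count, so it does not compare lung marker genes with shared short regions in general. Sftpc, which encodes surfactant protein C, held 1 region (chr14:70521891-70522869) with scores of 298, 197 and 166 in the transgenic and 85.2, 163 and 54.0 in the wild-type libraries. The percentiles were 81.3, 79.1 and 80.6 and then 62.3, 73.2 and 9.38. The transgenic libraries thus ranked it above all wild-type ones, as they did 14.7% of all shared short regions. The midpoint lay inside the gene, 1439 bp from the nearest gene end. Whether DNA of the transgene's SPC promoter can align there is unknown. The other alveolar type 2 gene, Etv5, and the alveolar type 1 genes Rtkn2 and Col4a3 had lowest percentiles of 26.1, 52.8 and 41.6. The airway genes Trp63, a basal cell transcription factor, and Cyp2f2, a cytochrome of club cells, had 78.1 and 73.3. Cdh5, the cadherin of endothelial junctions, reached 87.7, but the other endothelial genes named, Tek, Tie1 and Vwf, had 56.8, 26.0 and 8.24. The macrophage gene Adgre1 (F4/80) had 91.2 and Mrc1, the macrophage mannose receptor, 86.4. Fn1, the fibronectin gene, had 0.639 through wild-type replicate 3, while the other 5 libraries placed it between 87.5 and 94.4. Peaks of methylated DNA in a mixed tissue do not say in which cell type the methylation lies.

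Along the chromosomes the regions were spread more evenly than the rest. They occurred at 6.92 per Mb, from 6.15 on chromosome 2 to 7.80 on chromosome 7, whereas regions of fewer lists ranged from 47.8 per Mb on chromosome 14 to 74.6 on chromosome 17. Over the 19 autosomes the Spearman correlation with gene density was -0.10 for the shared short regions and 0.49 for the others, given as a description. In 2374 windows of 1 Mb the median was 6 regions (10th to 90th percentile 3 to 11), and 14 windows held 0. Across these windows the correlation with the number of genes was 0.18 for shared short regions and 0.69 for the others. Windows with 1 to 5 genes had a mean of 6.52 shared short regions and 20.1 others, and windows with over 30 genes 8.58 and 90.4. The others thus followed gene number more steeply than the shared short regions did.

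From the centromere-side start of the assembled sequence to its end, cut into 10 equal parts, the shared short regions numbered 7.83 per Mb in the first, 6.20 in the seventh and 7.99 in the last. Regions of fewer lists rose from 47.7 per Mb in the first to 95.2 in the last. The median gap between neighbouring shared short regions was 86682.5 bp. The fullest windows held 26 regions each, one over the protocadherin gene cluster of chromosome 18 and one at 45000000 to 45999999 of chromosome 7, a gene-dense stretch that includes Sec1, Gys1 and Trpm4. A window of chromosome 4 (147000000 to 147999999) with a cluster of zinc-finger genes such as Zfp982 and Zfp534 held 23. Zinc-finger genes named Zfp had a shared short region inside in 96 of 388 cases (24.7%, 95% exact binomial interval 20.5 to 29.3), near the 21.8% of protein-coding genes in general, and clustered protocadherins in 38 of 57, whose annotated spans overlap so that 1 region counts for several genes.

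The authors' deposited table of differential regions held 194 of the shared short regions (1.17%), where 0.405% of the 87959 autosomal regions with 3 lists or more were in it. Nearly all were higher in the transgenic lungs: 190 regions (1.14%) in the authors' deposited table, against a background of 0.306%. Only 4 (0.0240%) were lower, against a background of 0.0989%. Regions with a peak in 3 to 5 lists had 72 higher (0.101%) and 83 lower (0.117%) in the authors' deposited table. The rule asks for a peak in every transgenic and every wild-type list, so regions with a peak in 1 group alone are outside it in both directions.

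The 190 higher regions had a median log2 fold of 0.56 (1.47-fold), from 0.31 to 1.37, at a median wild-type concentration of 6.23 (log2), all from the authors' deposited table. By the authors' deposited table, 3 of them reached a log2 fold of 1. Their median width was 1356 bp, against 793 bp for shared short regions outside the table. The share listed as higher in the authors' deposited table went up with width. It was 0% under 500 bp, then 0.0631%, 0.405% and 2.96%, and 7.68% from 1500 to under 2500 bp. In that widest class it was 0.703% for regions of 1 to 5 lists and 1.16% for those of 5 lists. The authors' deposited table holds no autosomal region of 1 or 2 lists, which lowers the first of these shares. Among shared short regions the share also went up with rank. From the lowest to the highest of the 4 groups by lowest percentile, the authors' deposited table held 21, 22, 40 and 107 higher regions. The part of width and rank in these calls was not tested. Of the 190, 69 (36.3%) had the midpoint inside a gene and 4 lay within 1000 bp of a gene end. In the authors' deposited annotation, 10 of the 194 overlapped a CpG island, and 13 of all 356 listed autosomal regions, the 194 included. The island share of shared short regions outside the table is unknown here.

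**Figure D5:**
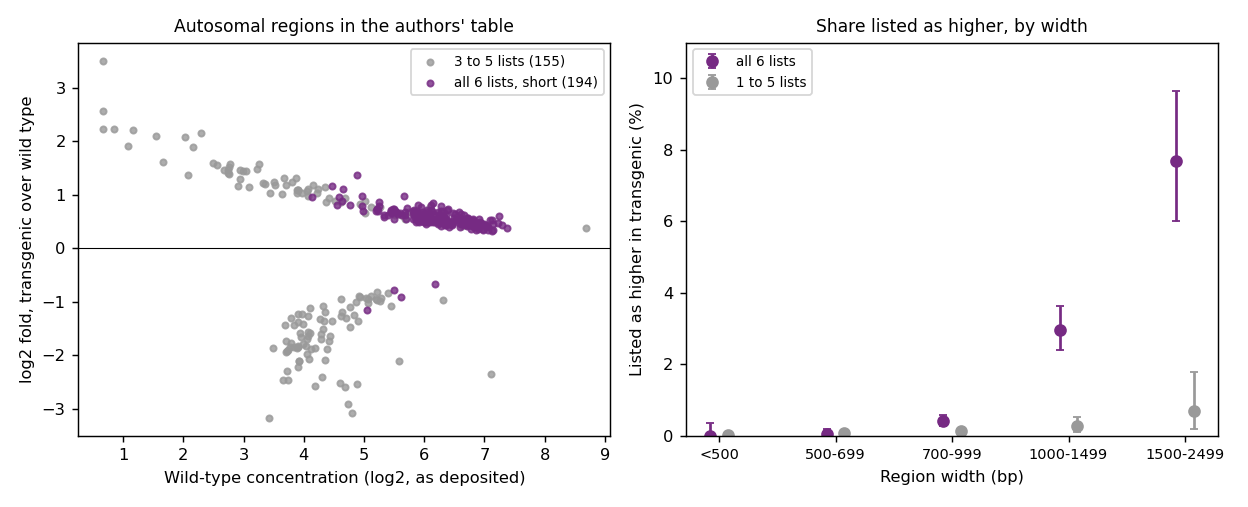
Left, log2 fold (transgenic over wild type) against wild-type concentration (log2), as the authors' deposited table gives them, for the 194 shared short regions and the 155 regions of 3 to 5 lists in it; right, share of all regions of a width class that the table lists as higher, with the 95% exact binomial interval. The shared short regions sit at high concentration and low fold, with 190 above 0 and 4 below, and the share listed as higher reaches 7.68% in the widest class.

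The largest fold in the authors' deposited table among these regions was inside Rere, a transcriptional co-regulator gene, at chr4:150581019-150581809. Its scores were 1703, 1071 and 376 in the transgenic and 107.5, 429 and 79.0 in the wild-type libraries. The percentiles were 99.92, 99.93 and 97.5 against 78.1, 96.2 and 63.4, without overlap. In the authors' deposited table the log2 fold was 1.37 and the FDR 0.0107. Gm41991, a predicted gene 34219 bp from its region, came second by log2 fold, which the authors' deposited table puts at 1.16 (FDR 0.0102). Kcnk2, a potassium channel gene, had a region with scores of 1010, 693 and 415.5 and then 124, 344 and 71.1, and its percentiles did not overlap between the groups (lowest transgenic 98.3, highest wild type 93.7). In the authors' deposited table its log2 fold is 1.12 (FDR 0.00297). Ndufaf2, an assembly factor of respiratory complex I, had scores of 1507, 852.5 and 601 and then 291, 515 and 55.4, with percentiles of 99.5 or more in the transgenic and of 99.3 or less in the wild-type libraries. The authors' deposited table lists it at 0.97 (log2 fold; FDR 0.000238). Strn (striatin) and Adamts20, a secreted metalloprotease gene, followed in the authors' deposited table, where their log2 folds were 0.97 and 0.96 and their FDR 0.0553 and 0.0698.

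Dazl was the germline gene among them. Its region, chr17:50293035-50294397, spans the promoter printed above and had scores of 1154, 792 and 519 in the transgenic and 154.5, 580 and 136 in the wild-type libraries. The percentiles were 99.3, 99.1 and 99.6 in the transgenic and 91.0, 98.5 and 94.5 in the wild-type libraries, without overlap. In the authors' deposited table the log2 fold was 0.68 and the FDR 0.0416. It was the only one of the 20 germline starts, and of the 196 regions at coding starts, that the table lists in either direction. Of all shared short regions the table lists 1.17%, so these counts are too small to set either group of starts apart.

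The 4 lower regions lay in Gys1, the muscle glycogen synthase gene, and Gm39035, and near Gm33171 and AY761185. In that order, the authors' deposited table lists log2 folds of -1.15, -0.67, -0.91 and -0.78, with FDR values of 0.0522, 0.0422, 0.0979 and 0.0553. At Gys1 (chr7:45454784-45455412) the scores were 140, 114 and 55.3 in the transgenic and 151, 270 and 140.5 in the wild-type libraries. The percentiles, 55.0, 56.4 and 9.09 against 90.5, 89.5 and 95.1, did not overlap.

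By score percentile, every transgenic library ranked above every wild-type library in 2450 shared short regions (14.7%) and below in 122 (0.733%). Over all 16742 autosomal regions with a peak in 6 lists, the background, these shares were 14.7% and 0.735%. The shared short regions make up 99.4% of that background, so the comparison cannot set them apart from it. The transgenic libraries had 3 of the 4 longest lists and higher median percentiles for these regions as a whole, which moves with the direction of these counts. Of the 190 regions that the authors' deposited table lists as higher, 155 (81.6%) had transgenic percentiles above all wild-type ones. These calls and the percentiles come from the same libraries, so the count gives no separate evidence.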

How the data were processed

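MBD-seq peaks of 6 lungs, 3 transgenic and 3 wild type by sample title, were used. The labels call them biological replicates. Capture used a MethylCap kit, per the labels' protocols. Bowtie, DiffBind, edgeR and the build mm10 are named without versions, per the submitters' processing notes. The peak names in the deposited lists are those of MACS, whose version and settings are unknown here. Peak scores in the deposited lists come from the authors' peak caller, begin at 50 and have no common scale across libraries. Concentrations and folds in the authors' deposited table of 407 regions are on a log2 scale, and its p-value and FDR columns are the authors' own, up to an FDR of 0.0996. The distance to CpG islands, in bp, comes from the authors' deposited annotation.

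Peaks on 19 autosomes were merged at 1 shared or touching bp. A midpoint was inside a gene when it lay between the ends of any gene of the RefSeq table (GRCm38.p6, 47042 autosomal genes). Strand and starts came from the RefSeq promoter table, which matched 25748 of them (54.7%). Starts on chromosome 18 (1325 genes, 590 regions) were not used here, so counts at starts, promoters and 3′ ends come from the other 18 autosomes. Exons and introns were not resolved. Of 388 entries in 12 gene lists, 383 matched a symbol. The members and lists were chosen with earlier results of these data known. Named were the first 20 coding starts by lowest percentile, without predicted-gene names, and up to 4 genes a list. The largest folds of the authors' table in each direction, the regions next to the width limit, the narrowest and the highest-ranking were also named. Germ-cell, imprinted and promoter examples beyond these were chosen after their values were seen. Group means of library values were tested by two-sided exact permutation. Intervals are 95% exact binomial. Read depth per library is unknown. Merging and class assignment were checked on simulated regions, and 200 of 200 planted among 2050 were recovered. Python 3.11.15, numpy 2.4.6, pandas 2.3.3 and scipy 1.17.1 were used.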

Additional observations from a re-analysis of the deposited data

How the results depend on the processing

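The number of shared short regions, 16639, depended on the peak lists: 3560 were found with peaks of at least the pooled median score, 95.3, 9508 with the 28399 top-scoring peaks of each list, and 16651 to 35509 when 1 library was left out, the last without wild-type replicate 3. The share inside genes minus that of regions in fewer lists, -14.5 percentage points, was -16.1 and -12.8 under the 2 peak selections and -14.6 to -10.3 with 1 library left out. The share near gene ends, -1.34 points, was -3.04 and -2.52 under those selections, -0.22 with a window of 500 bp, -2.77 with 2000 bp, -0.51 when any overlap counted, and -1.53 to -0.28 with 1 library left out. The share over 100 kb from a gene end, 5.59 points above, was 7.005 with peaks of at least the median score and 4.22 to 5.56 with 1 library left out. The germline genes with a region at a start, 20, were 8 with peaks of at least the median score, 16 with equal lists and 19 to 27 with 1 library left out. The last 2 results and those at starts were tried under these alternatives after seeing the data. The difference within 1000 bp of a start, -0.67 points, was -0.71 to -0.54 with 1 library left out and -0.69 without chromosome 18.

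For the library measures, transgenic minus wild type was -20.5 points for the share of peaks (-31.5 to -5.63 with 1 library left out, -2.92 with equal lists), 12.0 for the median percentile (5.31 to 18.3) and 22.4 points for the covered share (6.94 to 34.5), with the smallest differences without wild-type replicate 3. The replicate block leaves these differences as they are and gives sign-flip p of 0.25, 0.25 and 0.50, where 3 pairs allow no less than 0.25. With each group's mean taken off, percentiles of same-numbered libraries correlated at -0.083, 0.049 and 0.011 across the shared short regions. Transgenic and wild-type libraries of different number gave -0.073 to 0.053. Deviations from a shared group mean are tied to each other, so these values cannot decide whether the numbers pair the samples. Halving the FDR limit to 0.0498 left 105 of the 194 shared short regions that the authors' deposited table holds, with 104 higher and 1 lower. All other alternatives listed kept the direction and stayed within the counting interval, or within 1.5 times for counts.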
